A study of Mus musculus with 15 samples.

Results

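The 41 genes described here encode cyclins, kinases, replication factors and mitotic proteins that carry a cell through division. They were taken by platform gene symbol from 18193 measured genes, all 41 were found, and each is represented by its brightest probe set on average over 15 mouse expression arrays. The arrays held astroglia of 3 brain regions: subventricular zone (here SVZ), hippocampus and cerebellum, with 5 arrays per region. All animals were male, 6 to 8 weeks old and of the genotype Gli1-CreER;GFAP-GFP;R26tdTomato. In such mice the tamoxifen-inducible recombinase is driven by Gli1, a gene switched on by Sonic hedgehog, the tdTomato reporter stays on permanently after recombination, and GFP follows the astroglial Gfap promoter. Every group received 2 doses of 10 mg tamoxifen. Cells carrying both reporters were collected by flow cytometry after 3 weeks, and an array represents a pool from 10 to 12 mice. tdTomato therefore also marks descendants of cells that expressed Gli1 at labelling, and the 3 groups shared alleles and treatment. The SVZ and the hippocampus hold adult neural stem cells and the cerebellum was the region of comparison, so stem cell niche and brain region cannot be told apart.

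In the cell cycle, D-type cyclins with Cdk4 or Cdk6 act in G1, cyclin E with Cdk2 opens S phase, the MCM helicase and the sliding clamp Pcna replicate DNA, and cyclins A and B with Cdk1 drive mitosis. Adult neural stem cells are largely quiescent, and their activation brings these genes up on the way to transit amplifying progenitors. Transcription runs in waves, with E2F factors acting on many replication genes and MuvB complexes on many mitotic genes. MuvB binds a promoter element named the cell cycle genes homology region (CHR), which often lies near CCAAT boxes.

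The promoters of 4 genes are shown, and their elements differ in kind or number. Mki67 and Cenpe were chosen because they passed the test in a comparison below, whereas Top2a and Cdk1 are the usual mitotic representatives. Each line gives the 250 bases before the RefSeq start (GRCm38.p6) on the strand of the gene, and capitals mark letters found on either strand. The CCAAT box was searched as CCAAT. The CHR was searched as TTTGAA and, in its second form, as TTCGAA. The E2F site was searched as TTGGCGC, in a second form as TTCGCGC, in another as TTCCCGC and in the last as TTGCCGC.
Mki67, chr7:135716380-135716629, minus strand: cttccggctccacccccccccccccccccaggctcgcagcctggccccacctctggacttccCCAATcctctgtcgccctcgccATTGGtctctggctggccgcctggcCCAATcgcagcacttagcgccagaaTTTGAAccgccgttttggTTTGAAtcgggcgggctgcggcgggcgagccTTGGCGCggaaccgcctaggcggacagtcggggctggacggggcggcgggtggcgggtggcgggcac
Cenpe, chr3:135212313-135212562, plus strand: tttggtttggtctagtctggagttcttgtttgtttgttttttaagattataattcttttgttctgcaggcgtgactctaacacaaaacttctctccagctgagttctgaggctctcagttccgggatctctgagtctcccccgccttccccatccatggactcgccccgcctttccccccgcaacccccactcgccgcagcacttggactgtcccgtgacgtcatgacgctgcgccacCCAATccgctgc
Top2a, chr11:99024190-99024439, minus strand: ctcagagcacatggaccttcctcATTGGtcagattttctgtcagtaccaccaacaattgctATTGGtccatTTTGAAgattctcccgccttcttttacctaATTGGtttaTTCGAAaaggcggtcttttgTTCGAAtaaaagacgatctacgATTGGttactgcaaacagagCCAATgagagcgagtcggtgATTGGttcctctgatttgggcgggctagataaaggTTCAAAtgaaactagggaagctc
Cdk1, chr10:69352913-69353162, minus strand: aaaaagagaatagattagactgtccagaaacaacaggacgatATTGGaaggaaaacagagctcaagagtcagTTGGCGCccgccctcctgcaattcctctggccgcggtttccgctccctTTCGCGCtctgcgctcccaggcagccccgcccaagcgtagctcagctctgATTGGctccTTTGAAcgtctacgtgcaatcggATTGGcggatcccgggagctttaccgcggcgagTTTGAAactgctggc

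The Mki67 window held 3 CCAAT boxes, CHR letters at 116 and 98 bases before the start, and E2F letters at 67 bases. The Top2a window held 6 CCAAT boxes and 4 runs of CHR letters with no E2F letters, and the Cdk1 window held 3 CCAAT boxes with CHR letters at 71 and 15 bases and E2F letters at 178 and 130 bases. The Cenpe window held a CCAAT box at 12 bases and none of the other letters. The RefSeq table held 32 of the 41 genes, and it held no entry for Ccnd1, Ccnd2, Ccne2, Mcm4, Gins2, Ccna2, Foxm1, Aurkb and Tpx2.

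Over windows of 300 bases, from 250 before to 50 after the start, CHR letters were in 8 of 9 promoters of mitotic regulators and 8 of 10 of chromosome and spindle genes. The same letters were in 2 of 8 promoters of replication genes, 0 of 5 of G1 genes and 17.5% of 14452 promoters of measured genes. E2F letters were in 5 of 8 replication promoters, against 16.0% of all, and CCAAT in 24 of the 32, against 42.0% of all. Windows with all 3 elements numbered 4 of 32, against 0.768% of all. These are matches of letters and show no binding, and the gene lists are too small for more than this description.

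**Figure D1:**
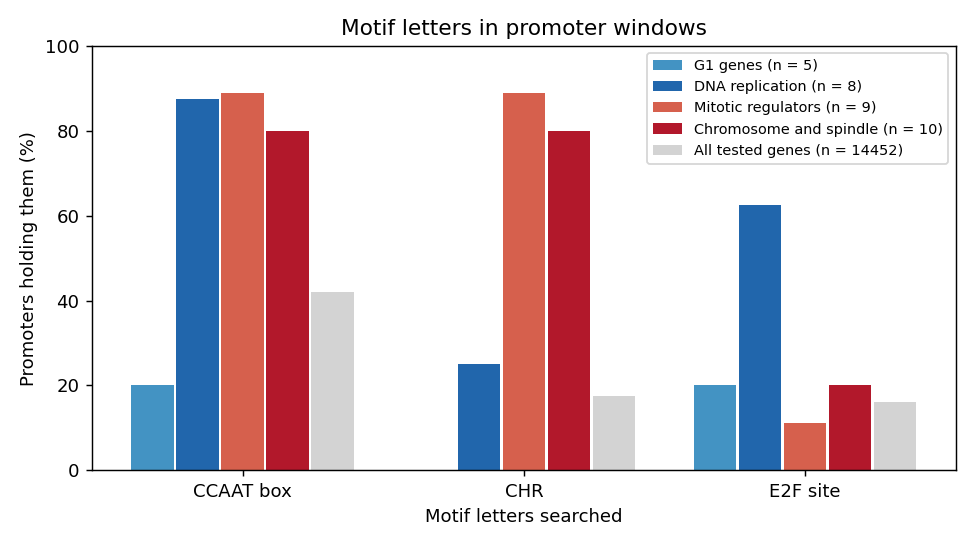
Percent of promoters (y axis) holding the letters of each of 3 elements (x axis), by group of genes; grey bars give all 14452 measured genes with a promoter in the RefSeq table. CHR letters stood in 8 of 9 promoters of mitotic regulators and 0 of 5 of G1 genes.

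Values are given as deposited and read as log2 signal, and the number of arrays limits their precision. Array medians lay between 1.12 and 1.31, so a level of 3 was taken as a mark above the bulk of dim probe sets, and 15.1% to 22.4% of probe sets exceeded it on an array. Pairwise correlations across genes were 0.763 to 0.894 among SVZ arrays, 0.792 to 0.884 among hippocampus arrays and 0.939 to 0.970 among cerebellum arrays. The 12 poly-A spike-in probe sets averaged 12.62 ± 0.86 (log2, SD, n = 5) on SVZ arrays, 12.49 ± 0.59 on hippocampus arrays and 10.32 ± 1.68 on cerebellum arrays, with the lowest means on cerebellum 4 and 5. SVZ 1 and hippocampus 3 had the lowest shares of probe sets above 3 in their regions (15.1% and 15.2%). Of the sort genes, Gfap lay between 2.69 and 5.46 in SVZ, 6.20 and 7.60 in hippocampus and 3.26 and 6.03 in cerebellum, and Gli1 exceeded 3 on 1 SVZ array (5.06), 1 hippocampus array (6.22) and 3 cerebellum arrays. Each of the 13 astrocyte markers exceeded 3 somewhere in every region, and 11, 12 and 12 of them did so on all arrays of SVZ, hippocampus and cerebellum.

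Most of the 41 genes were dim in the sorted cells. A level of 3 was never reached by 21 of them (51.2%, against 50.2% of all genes), among them 10 of 12 mitotic regulators, 5 of 11 chromosome and spindle genes, 5 of 8 G1 genes and 1 of 10 replication genes. Of the 20 that exceeded 3 on some array, 13 did so on SVZ or hippocampus arrays only and 0 on cerebellum arrays only. Among 9064 genes of all kinds that exceeded 3 somewhere, 23.7% did so on SVZ or hippocampus arrays only and 5.84% on cerebellum arrays only, with 10 arrays on the first side and 5 on the second. Of the 13 genes, 6 exceeded 3 on only 1 array, an SVZ array each time (Gins2, Cdc20, Top2a, Cenpf, Tpx2 and Nusap1). Only Mki67 among the 13 did so on at least 5 arrays. The share of all genes above 3 on only 1 array is not given here. Between 6 and 11 of the 41 genes exceeded 3 on an SVZ array, 5 to 12 on a hippocampus array and 3 to 6 on a cerebellum array. The contrast between phases depends on the probe sets used. Of the replication genes, Mcm2 to Mcm7 and Rrm2 were read on probe sets with the suffix s or x, which can cross-hybridise. So were Ccne1, E2f1, Foxm1, Aurkb, Bub1b, Cdc20 and Prc1 in the other groups. The further probe sets of Mcm2, Mcm5, Mcm6, Gins2 and Rrm2 stayed under 3 on every array.

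Only 8 of the genes exceeded 3 on at least 5 arrays, namely Mki67, Ccnd2, Cdk4, Pcna, Mcm3, Mcm4, Mcm7 and Rrm2. The level was highest on an SVZ array for 25 genes, on a hippocampus array for 15 and on a cerebellum array for 1, Pcna. Each region had 5 arrays, and the same shares over all genes are not given here, so these counts are not read as particular to the 41 genes. The spread between arrays was wider in SVZ than in cerebellum for 40 of 41 genes, with a median SD of 0.684 against 0.217, and for 73.6% of all genes. In hippocampus it was wider than in cerebellum for 33 of 41 genes, with a median SD of 0.593, and for 75.6% of all genes.

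**Figure D2:**
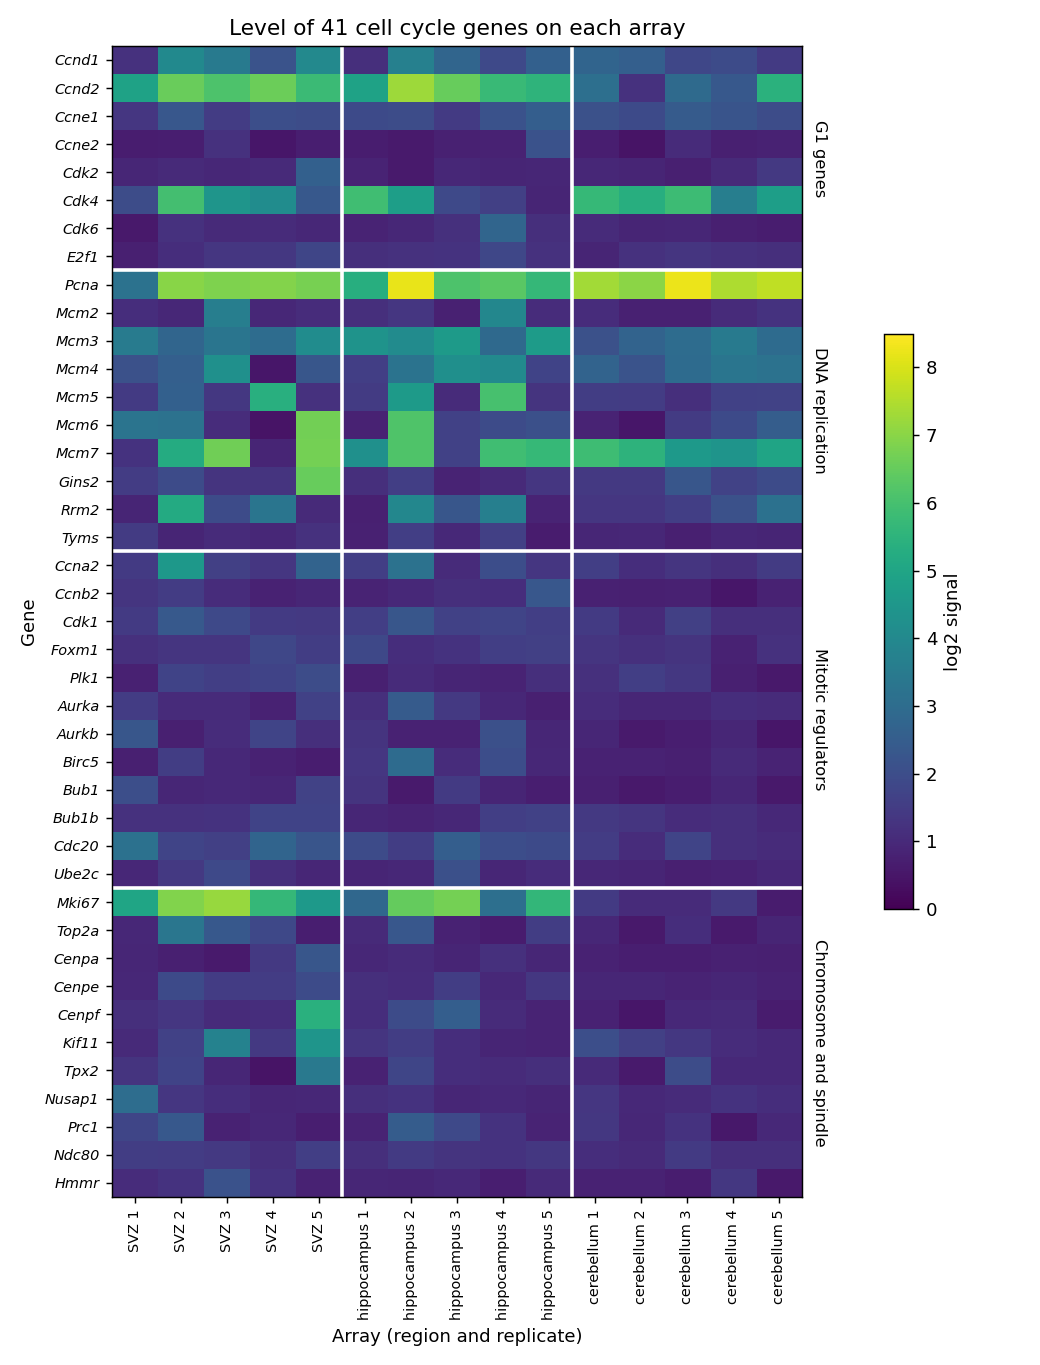
Level of each of the 41 genes (rows, by phase) on each of 15 arrays (columns), as log2 signal on the colour scale. Rows are for reading along, since levels of different probe sets cannot be compared; Mki67 and Ccnd2 are brighter on SVZ and hippocampus arrays than on most cerebellum arrays, and most mitotic genes are dark throughout.

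In SVZ against cerebellum, 3 of the 41 genes were higher and 0 were lower at an adjusted p under 0.05, namely Mki67, Ccnd2 and Cenpe. Over all 18193 genes 5.51% were called in this comparison, and 1.03% were called higher. In hippocampus against cerebellum, 2 were higher and 0 lower, Mki67 and Ccnd2, where 4.78% of all genes were called and 0.808% were called higher. Between SVZ and hippocampus 0 of the 41 were called by limma, and 4 of 18193 genes (0.022%) were. At an unadjusted p under 0.05 the counts were 8 higher and 0 lower in SVZ against cerebellum, 7 higher and 0 lower in hippocampus against cerebellum, and 2 higher and 2 lower in SVZ against hippocampus. Of all genes, 7.55% were higher and 13.6% lower by that measure in SVZ against cerebellum, 7.55% and 12.6% in hippocampus against cerebellum, and 3.53% and 3.49% in SVZ against hippocampus. The comparisons with cerebellum share the same 5 control arrays, so they are given side by side and are not independent. In pooled RNA of sorted cells, more cells with a transcript and more transcript per cell cannot be told apart.

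Under the thresholds stated for the study, a change above 4-fold with p below 0.01 before adjustment, the same 2 genes, Mki67 and Ccnd2, passed in both comparisons with cerebellum. Higher by those thresholds were 0.66% of all genes in SVZ and 0.423% in hippocampus.

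Mki67 encodes Ki-67, a protein that coats mitotic chromosomes, is absent from quiescent cells and is the standard marker of proliferation. Its only probe set read 5.00, 6.88, 7.18, 5.67 and 4.60 on SVZ arrays 1 to 5. On the hippocampus arrays it read 2.83, 6.49, 6.72, 3.11 and 5.62, and on the cerebellum arrays 1.43, 1.06, 1.06, 1.42 and 0.65. Every SVZ and hippocampus array was above every cerebellum array, and hippocampus 1 and 4 were the lowest of their region. The difference from cerebellum was 4.74 ± 0.75 in SVZ (log2, SE, 95% interval 3.14 to 6.35, limma adjusted p = 0.00189) and 3.83 ± 0.75 in hippocampus (2.22 to 5.44, adjusted p = 0.00851). All 5 cerebellum values lay under the mark of 3, near the array medians, so the sizes of these differences depend on the level that dim probe sets take. Set against the mark itself, the mean Mki67 level lay 7.29-fold above it in SVZ and 3.87-fold above it in hippocampus, where array 1 was under it. These folds are taken from the means and make no allowance for the spread between arrays. The same limit on size holds for any gene under 3 on every array of a region.

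Without cerebellum 4 and 5, the arrays with the lowest spike-in signal, the Mki67 difference was 4.68 in SVZ (limma adjusted p = 0.0235). In hippocampus it was 3.77, which was then not called (adjusted p = 0.0679). With the spike-in mean as a covariate the hippocampus difference was 4.33 (adjusted p = 0.0640). Without SVZ 1 and hippocampus 3 the differences were 4.96 and 3.39 (adjusted p = 0.00273 and 0.0263).

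Ccnd2 encodes cyclin D2, which partners Cdk4 and Cdk6 in G1 and is the D-type cyclin most tied to adult neurogenesis in mice. It read 4.90, 6.56, 6.13, 6.59 and 5.78 on the SVZ arrays. On the hippocampus arrays it read 4.89, 7.25, 6.53, 5.77 and 5.53, and on the cerebellum arrays 3.09, 1.22, 2.94, 2.35 and 5.44. Cerebellum 5 lay within the range of both other regions, and the other cerebellum arrays lay below all SVZ and hippocampus arrays. The difference from cerebellum was 2.98 ± 0.66 in SVZ (1.58 to 4.39, limma adjusted p = 0.0161) and 2.99 ± 0.66 in hippocampus (1.58 to 4.39, adjusted p = 0.0175).

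Without cerebellum 5 the Ccnd2 difference was 3.59 in SVZ and 3.59 in hippocampus (limma adjusted p = 0.00167 and 0.00157), and without cerebellum 4 it was 2.82 in both, not called in hippocampus (adjusted p = 0.0519). Leaving out SVZ 1 and hippocampus 3 gave 3.26 and 2.85 (adjusted p = 0.0211 and 0.0465). The gene has 6 further probe sets. Their differences from cerebellum were 0.33 to 2.13 in SVZ and 1.42 to 2.25 in hippocampus, positive for all 6 in both, and 0 of the 6 passed the test. With the mean of all 7 probe sets the differences were 1.56 (limma adjusted p = 0.183) and 1.91 (adjusted p = 0.115), so the Ccnd2 call rests on its brightest probe set.

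**Figure D3:**
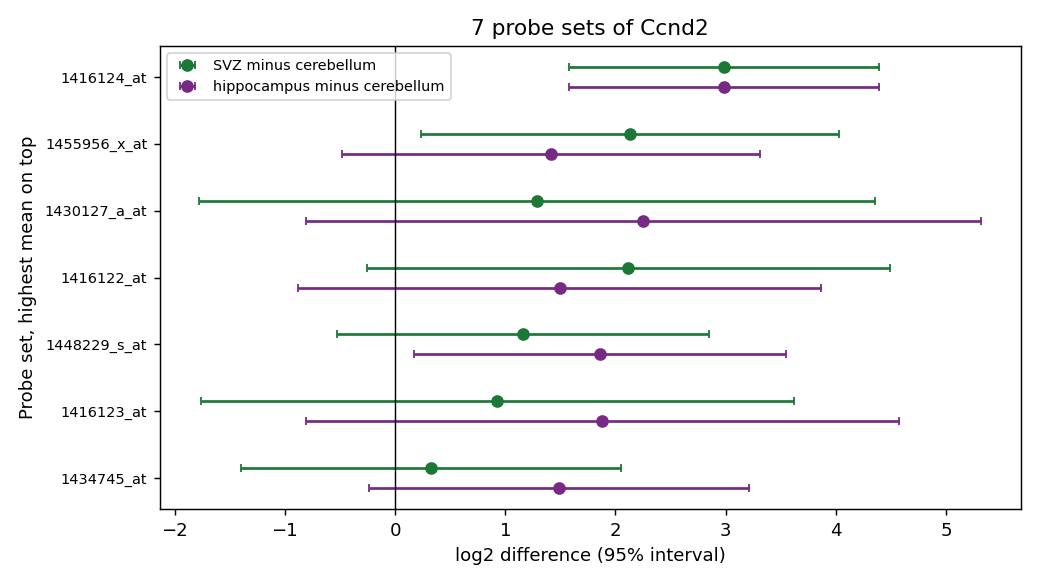
Difference from cerebellum (x axis, log2 with 95% interval) of each of the 7 probe sets of Ccnd2 (y axis), for SVZ and for hippocampus. All points lie above 0, and the probe set on top, used in the test, has the largest differences, 2.98 and 2.99.

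Cenpe encodes CENP-E, a kinesin that moves chromosomes at the kinetochore. Its level was 0.96, 1.92, 1.51, 1.51 and 1.95 in SVZ, 1.13, 1.09, 1.55, 0.99 and 1.37 in hippocampus and 0.91, 0.90, 0.85, 0.91 and 0.80 in cerebellum. Every array of both forebrain regions was above every cerebellum array, and all 15 values were under 3. The difference from cerebellum was 0.70 ± 0.18 in SVZ (0.31 to 1.09, limma adjusted p = 0.0398) and 0.35 ± 0.18 in hippocampus (−0.04 to 0.74, adjusted p = 0.293). The SVZ call was lost in 9 of 15 fits that left out an array, and the second probe set of Cenpe differed by 0.04 in SVZ.

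Small positive differences were general among dim genes. Over 9129 genes at or under 3 on every array, the median difference from cerebellum was 0.15 in SVZ and 0.17 in hippocampus, and 78.4% and 79.3% of them were positive. The 21 cell cycle genes of that kind had medians of 0.29 in SVZ and 0.30 in hippocampus, with 20 and 18 positive. Between SVZ and hippocampus their median was −0.002, with 10 of 21 positive.

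**Figure D4:**
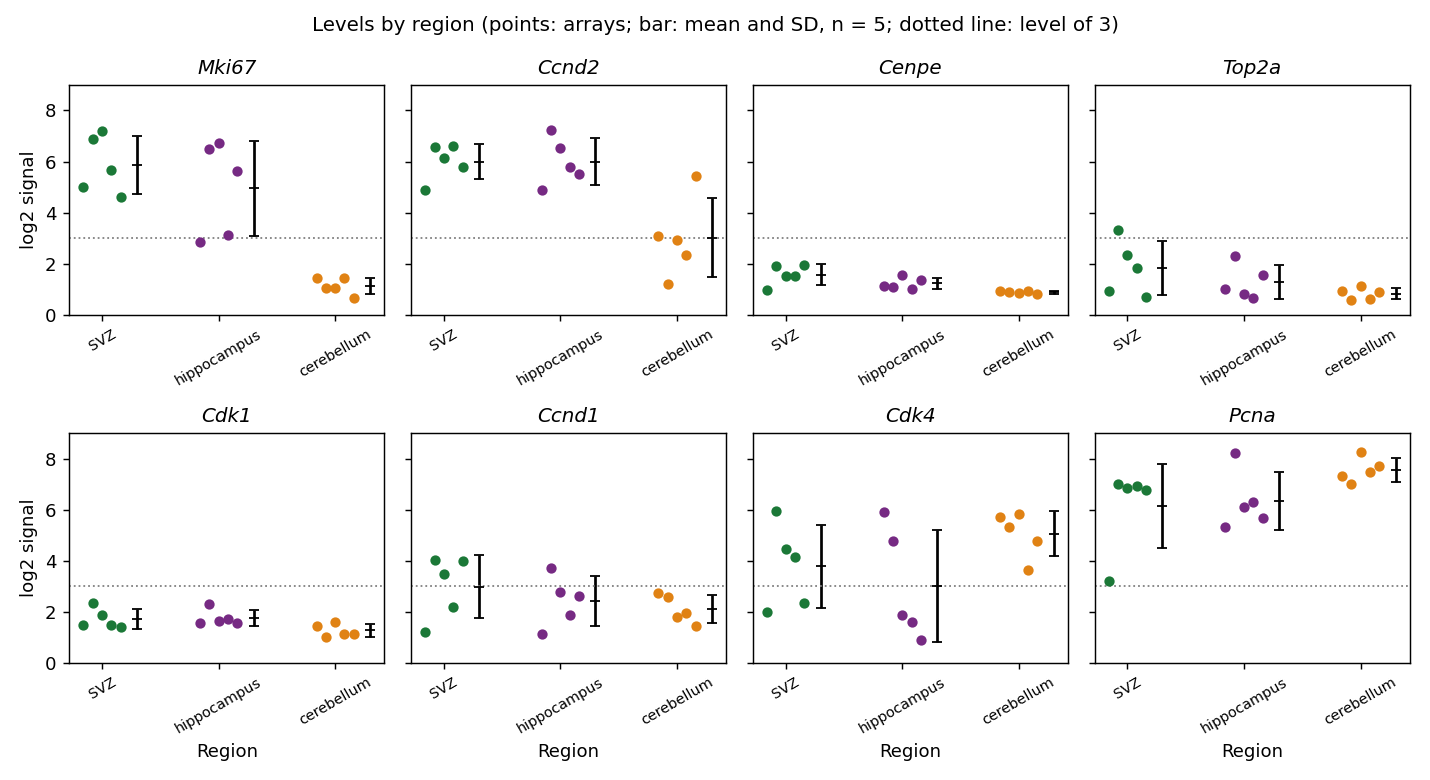
Level (y axis, log2 signal) of 8 genes in SVZ, hippocampus and cerebellum (x axis); points are arrays, and the bar gives the mean and SD of 5 arrays. Mki67 separates both forebrain regions from cerebellum, Ccnd2 does so apart from cerebellum 5, and the Pcna points of SVZ lie below those of cerebellum.

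Among the 8 G1 genes only Ccnd2 was called, in both comparisons with cerebellum. The median difference of the 8 was 0.12 in SVZ and 0.21 in hippocampus, beside 0.07 for all genes in either comparison. For genes at or under 3 on every array, as 5 of the 8 were, it was 0.15 and 0.17. Ccnd1, the cyclin D1 gene, read 1.21, 4.04, 3.48, 2.19 and 4.00 in SVZ, 1.13, 3.70, 2.76, 1.86 and 2.60 in hippocampus and 2.73, 2.56, 1.81, 1.95 and 1.44 in cerebellum. Its SVZ and hippocampus arrays ran from below to above the cerebellum range, and its differences were 0.89 ± 0.57 (limma adjusted p = 0.391) and 0.31 ± 0.57 (adjusted p = 0.768).

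Cdk4, a catalytic partner of the D cyclins, read 1.99, 5.96, 4.44, 4.13 and 2.34 in SVZ, 5.90, 4.75, 1.88, 1.61 and 0.89 in hippocampus and 5.70, 5.32, 5.84, 3.65 and 4.76 in cerebellum. The cerebellum arrays were all above 3, 2 SVZ and 3 hippocampus arrays were not, and the ranges overlapped. The differences, −1.28 ± 0.97 (limma adjusted p = 0.469) and −2.05 ± 0.97 (adjusted p = 0.256), did not pass. Cdk6, the other partner, read 0.59, 1.21, 1.00, 1.06 and 0.95 in SVZ, 0.86, 0.96, 1.18, 2.78 and 1.15 in hippocampus and 1.06, 0.87, 0.91, 0.76 and 0.68 in cerebellum. Only hippocampus 4 stood out, and the Cdk6 differences were 0.11 ± 0.30 (limma adjusted p = 0.858) and 0.53 ± 0.30 (adjusted p = 0.327). Without hippocampus 4 the hippocampus difference was 0.18. The 2 further Cdk6 probe sets gave 1.204 and 0.534 in hippocampus, and with the mean of the 3 probe sets Cdk6 was called there (0.76, limma adjusted p = 0.0375). Ccne1 and Ccne2, the E cyclins, Cdk2, their kinase, and E2f1, a transcription factor of S phase genes, stayed under 3 on all 15 arrays, with differences from cerebellum between −0.29 and 0.29 in SVZ and −0.17 and 0.25 in hippocampus.

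Of the 10 replication genes 0 were called in any comparison by limma; at an unadjusted p under 0.05 there were 0 in SVZ against cerebellum and 1, Mcm3, in hippocampus against cerebellum, where 21.1% and 20.1% of all genes passed. The median difference from cerebellum was 0.52 in SVZ and 0.31 in hippocampus, with 7 of 10 positive in each. Pcna, the sliding clamp of DNA polymerases, which also acts in repair, exceeded 3 on all 15 arrays. It read 3.20, 7.00, 6.84, 6.93 and 6.76 in SVZ, 5.32, 8.22, 6.12, 6.31 and 5.66 in hippocampus and 7.33, 7.02, 8.25, 7.47 and 7.69 in cerebellum. All SVZ arrays lay below all cerebellum arrays, SVZ 2 at 7.00 and cerebellum 2 at 7.02 being the closest, and SVZ 1 was far below the rest of its region. The Pcna differences were −1.41 ± 0.70 (limma adjusted p = 0.267) and −1.23 ± 0.70 (adjusted p = 0.335). Without SVZ 1 the SVZ difference was −0.67 (limma adjusted p = 0.469).

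Mcm2 to Mcm7 encode the subunits of the replicative helicase, and several were high on single arrays of SVZ or hippocampus. Mcm5 exceeded 3 on SVZ 4 (5.37), hippocampus 2 (4.64) and hippocampus 4 (6.03) and lay between 1.03 and 2.59 elsewhere. Mcm6 reached 6.69 on SVZ 5 and 6.15 on hippocampus 2, with 0.46 to 3.27 elsewhere. These peaks were seen on 1 probe set per gene. The further probe sets reached at most 2.25 for Mcm5 and 2.46 for Mcm6 on any array. Mcm7 lay between 0.87 and 6.74 in SVZ, 1.65 and 6.15 in hippocampus and 4.39 and 5.86 in cerebellum. The SE of these differences from cerebellum was 0.98 for Mcm5, 1.12 for Mcm6 and 1.18 for Mcm7, wider than for most of the other genes.

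Mcm3, shown in full after its values were seen, came nearest to a call among the helicase genes. It read 3.52, 2.76, 3.32, 2.99 and 4.14 in SVZ, 4.37, 4.10, 4.64, 2.89 and 4.66 in hippocampus and 2.10, 2.70, 3.01, 3.49 and 2.98 in cerebellum. Hippocampus arrays other than the fourth lay above all cerebellum arrays, and the SVZ arrays overlapped them. The difference from cerebellum was 0.49 ± 0.36 in SVZ (limma adjusted p = 0.458) and 1.28 ± 0.36 in hippocampus (adjusted p = 0.0630), while the 4 further probe sets gave −0.24 to 0.26 and −0.18 to 0.60. Mcm2 exceeded 3 on SVZ 3 (3.62) and hippocampus 4 (3.93) only, and Gins2, a subunit of the helicase activator GINS, on SVZ 5 only (6.53). The other probe set of each gene reached at most 1.91 for Mcm2 and 1.89 for Gins2. Rrm2, the small subunit of ribonucleotide reductase, exceeded 3 on 2 SVZ, 2 hippocampus and 1 cerebellum arrays, and Tyms, thymidylate synthase, on 0 of 15.

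The 12 mitotic regulators all had positive differences from cerebellum in SVZ, as had 11 of 12 in hippocampus, and 0 of the 12 were called in either. Their medians were 0.42 in SVZ and 0.39 in hippocampus, where dim genes in general had 0.15 and 0.17. Cdk1, the mitotic kinase, read 1.46, 2.36, 1.86, 1.46 and 1.41 in SVZ, 1.57, 2.29, 1.63, 1.73 and 1.57 in hippocampus and 1.43, 1.01, 1.61, 1.13 and 1.14 in cerebellum. No array reached 3, the regions overlapped, and the differences were 0.45 ± 0.21 (limma adjusted p = 0.245) and 0.49 ± 0.21 (adjusted p = 0.212).

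Ccnb2, cyclin B2, read 1.31, 1.50, 1.07, 0.83 and 0.90 in SVZ, 0.84, 0.99, 1.15, 1.10 and 2.32 in hippocampus and 0.78, 0.75, 0.78, 0.50 and 0.80 in cerebellum. All SVZ and hippocampus arrays were above all cerebellum arrays, with narrow gaps. The differences were 0.40 ± 0.24 (limma adjusted p = 0.366) and 0.56 ± 0.24 (adjusted p = 0.220), the second of which was 0.30 without hippocampus 5. Cdc20, an activator of the anaphase-promoting complex, lay between 1.62 and 3.17 in SVZ, 1.53 and 2.53 in hippocampus and 1.06 and 1.75 in cerebellum. Its differences, 1.00 ± 0.29 (limma adjusted p = 0.0597) and 0.68 ± 0.29 (adjusted p = 0.208), did not pass, and its 2 further probe sets gave 0.58 and 1.17 in SVZ.

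Ccna2, cyclin A2, exceeded 3 on SVZ 2 (4.52) and hippocampus 2 (3.21) and lay between 1.06 and 2.71 elsewhere. The other mitotic regulators stayed under 3 on all arrays, which holds for Foxm1, a transcription factor of G2 and mitosis genes, the kinases Plk1, Aurka, Aurkb, Bub1 and Bub1b, the survivin gene Birc5 and the ubiquitin-conjugating enzyme Ube2c. Their differences from cerebellum ran from 0.11 for Birc5 to 0.67 for Aurkb in SVZ and from −0.15 for Plk1 to 0.82 for Birc5 in hippocampus.

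The 11 chromosome and spindle genes include Mki67 and Cenpe, described above, and 9 that were not called in any comparison. All 11 differences from cerebellum were positive in SVZ, with a median of 0.45, and 9 of 11 in hippocampus, with a median of 0.24. Top2a, topoisomerase II alpha, which untangles sister chromatids, read 0.94, 3.33, 2.35, 1.84 and 0.70 in SVZ, 1.00, 2.30, 0.83, 0.65 and 1.55 in hippocampus and 0.94, 0.57, 1.11, 0.63 and 0.89 in cerebellum. It exceeded 3 on SVZ 2 alone, the regions overlapped, and the differences were 1.00 ± 0.44 (limma adjusted p = 0.212) and 0.44 ± 0.44 (adjusted p = 0.584).

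Cenpf, a kinetochore and nuclear matrix protein gene, read 1.15, 1.34, 1.04, 1.11 and 5.40 in SVZ, 1.11, 1.95, 2.53, 1.06 and 0.85 in hippocampus and 0.83, 0.53, 0.98, 1.02 and 0.64 in cerebellum. All SVZ arrays lay above the cerebellum arrays, SVZ 3 narrowly so, and SVZ 5 stood far above. The Cenpf differences were 1.21 ± 0.70 (limma adjusted p = 0.337) and 0.70 ± 0.70 (adjusted p = 0.577). Without SVZ 5 the SVZ difference was 0.36 (limma adjusted p = 0.528), and with the mean of its probe sets Cenpf was called in SVZ (0.77, adjusted p = 0.0411). Cenpa, the centromeric histone H3 variant gene, read 0.90, 0.74, 0.62, 1.41 and 2.29 in SVZ, 0.96, 1.06, 0.89, 1.19 and 0.90 in hippocampus and 0.82, 0.71, 0.73, 0.78 and 0.76 in cerebellum. Its hippocampus arrays lay above all cerebellum arrays and its SVZ arrays did not, and the differences were 0.43 ± 0.25 (limma adjusted p = 0.346) and 0.24 ± 0.25 (adjusted p = 0.600). Without SVZ 5 the Cenpa difference in SVZ was 0.16.

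Kif11, a kinesin that separates spindle poles, exceeded 3 on SVZ 3 (3.76) and SVZ 5 (4.43), Tpx2, an activator of Aurora A, on SVZ 5 (3.43), and Nusap1, a spindle-associated protein gene, on SVZ 1 (3.05). Prc1, which bundles midzone microtubules, Ndc80, which ties kinetochores to microtubules, and Hmmr, a spindle and hyaluronan-binding protein gene, stayed under 3 on all arrays. SVZ 5 held the highest value of 12 of the 41 genes, among them Mcm6, Mcm7, Gins2, Cenpf, Kif11 and Tpx2, while its Mki67 level of 4.60 was the lowest of the SVZ arrays and its Top2a level was 0.70. The share of all genes with their highest value on SVZ 5 is not given here.

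Arrays of SVZ lay wholly above those of cerebellum for 4 of the 41 genes, Mki67, Cenpe, Cenpf and Ccnb2, against 2.6% of all genes. Arrays of hippocampus lay wholly above those of cerebellum for 4, Mki67, Cenpe, Cenpa and Ccnb2, against 2.68% of all genes. Among the 21 genes never above 3 the counts were 2 and 3, and among the 9129 dim genes of all kinds the shares were 2.72% and 3.35%. Wholly below cerebellum lay 1 of the 41 genes in SVZ, Pcna, and 0 in hippocampus, against 1095 and 965 of all 18193 genes.

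**Figure D5:**
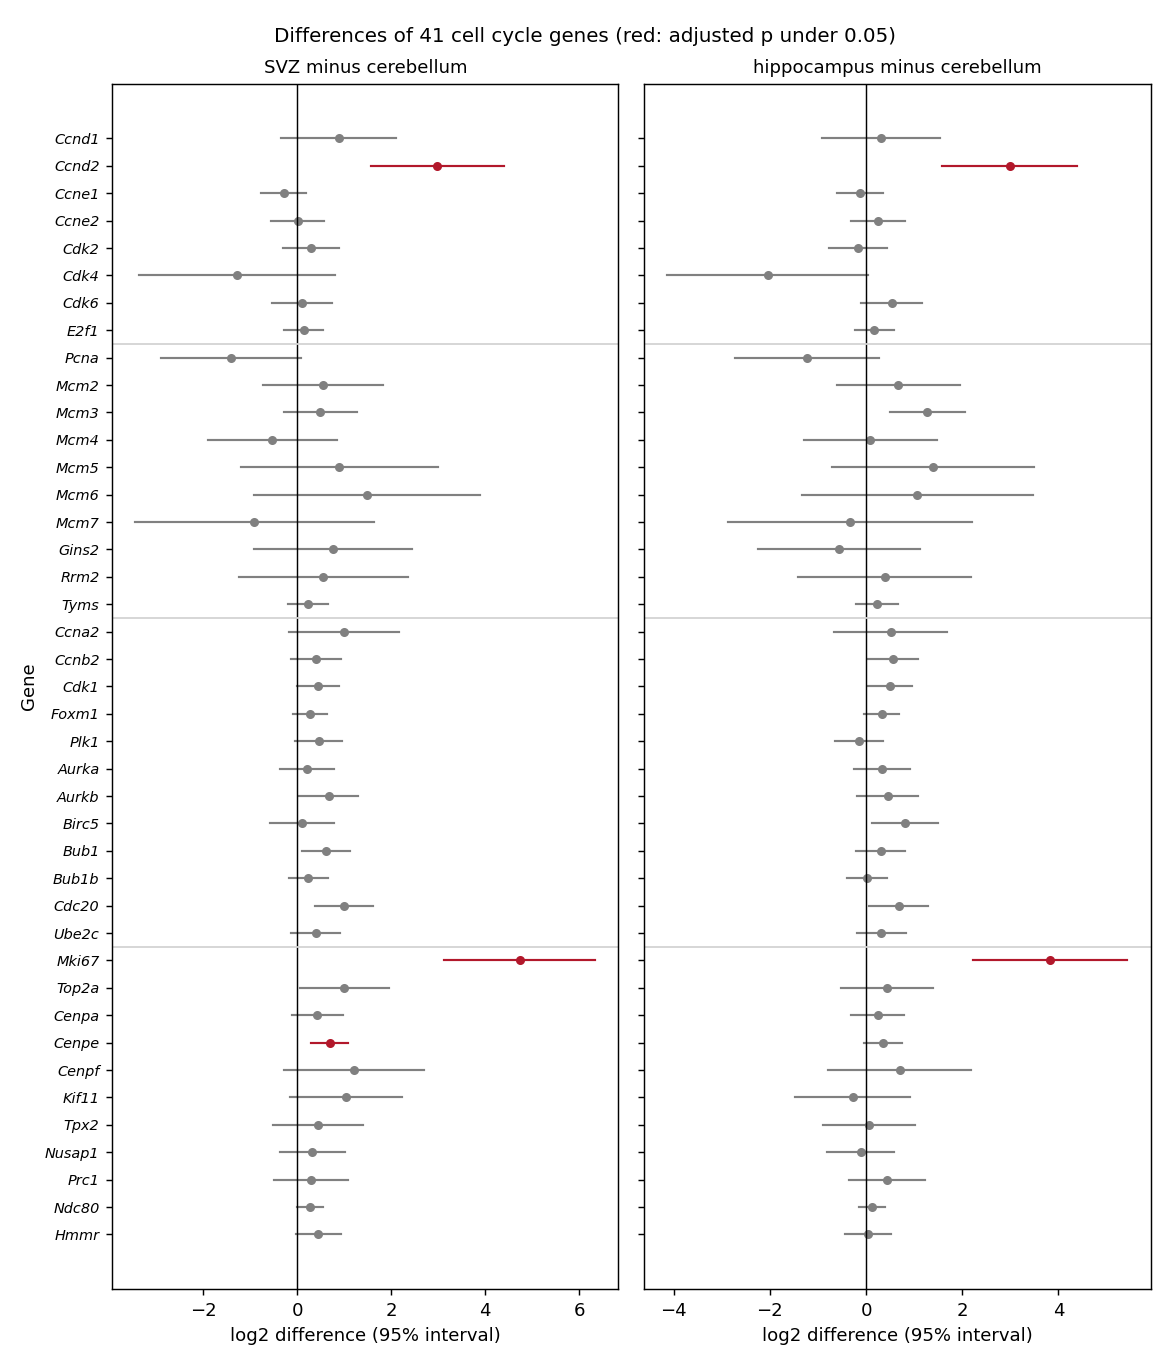
Difference from cerebellum (x axis, log2 with 95% interval) of each of the 41 genes (y axis, grouped by phase) in SVZ and in hippocampus, with called genes in red. Mki67, Ccnd2 and Cenpe are called in SVZ and Mki67 and Ccnd2 in hippocampus, and the other points lie nearer 0 or have wide intervals.

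SVZ and hippocampus were then set against each other. The Mki67 difference was 0.91 ± 0.75 (95% interval −0.69 to 2.52, limma adjusted p = 0.797) and the Ccnd2 difference was −0.002 ± 0.66 (−1.41 to 1.41, adjusted p = 1), intervals that leave room for a difference of either sign. Of the 41 genes 0 had arrays that did not overlap, where 0.374% of all genes had SVZ arrays wholly above hippocampus arrays and 80 of 18193 had them wholly below. The genes with an unadjusted p under 0.05 were Plk1 (0.61 ± 0.24) and Kif11 (1.31 ± 0.56) on the SVZ side and Birc5 (−0.71 ± 0.32) and Mcm3 (−0.79 ± 0.36) on the hippocampus side, with adjusted p from limma of 0.607, 0.664, 0.703 and 0.703. By group, the median difference was −0.02 for G1 genes, −0.15 for replication genes, 0.15 for mitotic regulators and 0.41 for chromosome and spindle genes, 10 of 11 of which were positive, beside −0.004 for all genes.

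Further genes of the pathway were counted by list, beside the 5.51% of all genes called in SVZ and 4.78% in hippocampus. Of 31 other S phase genes 0 were higher and 2 lower in SVZ than in cerebellum and 0 were called in hippocampus, with median differences of 0.15 and 0.07. The 2 lower genes were Rpa2, a subunit of the single-strand binding protein (−1.90 ± 0.49, limma adjusted p = 0.0360), and Tipin, a replication fork protein gene (−1.77 ± 0.42, adjusted p = 0.0261), which in hippocampus differed by −1.55 and −1.49 without a call. Rpa2 read 1.16, 3.38, 3.25, 1.17 and 3.29 in SVZ and 4.72, 3.78, 4.89, 4.10 and 4.28 in cerebellum, with no overlap.

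Of 39 other G2 and M phase genes 0 were higher and 1 lower in each comparison with cerebellum, with median differences of 0.20 in SVZ and 0.23 in hippocampus. The lower gene was Gas2l3, which links actin and microtubules at cytokinesis, with differences of −2.23 ± 0.48 in SVZ (limma adjusted p = 0.0139) and −2.38 ± 0.48 in hippocampus (adjusted p = 0.00988). Gas2l3 lay between 0.90 and 3.24 in SVZ, 1.23 and 2.08 in hippocampus and 2.43 and 5.01 in cerebellum.

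Of 23 cell cycle inhibitors and pocket protein genes 0 were called in either comparison with cerebellum by limma, and the medians were 0.04 in SVZ and −0.11 in hippocampus. At an unadjusted p under 0.05 SVZ had 3 genes above and 3 below cerebellum, and hippocampus had 1 above and 4 below, or 6 and 5 of 23, where 21.1% and 20.1% of all genes passed. The smallest p in both belonged to Lin37, a MuvB subunit, with differences of −1.27 ± 0.43 in SVZ (limma adjusted p = 0.104) and −1.45 ± 0.43 in hippocampus (adjusted p = 0.0727), followed by Ccng2, cyclin G2, with −0.76 ± 0.29 (adjusted p = 0.158) and −0.96 ± 0.29 (adjusted p = 0.0844). Between SVZ and hippocampus 0 genes of these 3 lists were called.

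Markers of other cells moved beside the Mki67 and Ccnd2 differences, and their part in them was not tested. Of 9 measured genes of activated stem and transit amplifying cells, 2 were higher in SVZ than in cerebellum, Nr2e1 (5.85 ± 0.81, limma adjusted p = 0.000662) and Olig2 (1.03 ± 0.23, adjusted p = 0.0158), and 1 was lower, Fabp7 (−2.46 ± 0.22, adjusted p = 1.64e-05). In hippocampus Nr2e1 (5.05 ± 0.81) and Nes (0.65 ± 0.17) were higher and Fabp7 (−2.70 ± 0.22) was lower, with adjusted p from limma of 0.00207, 0.0395 and 4.71e-06. Olig2 reached at most 2.31 and Nes at most 2.03 on any array, in the range where positive differences from cerebellum were general. The summed log2 level of the list was 36.2 to 43.6 in SVZ, 32.2 to 37.6 in hippocampus and 28.0 to 31.8 in cerebellum.

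Of 15 measured markers of microglia, the brain's resident macrophages, 5 were higher in SVZ and 2 in hippocampus than in cerebellum. Csf1r, a growth factor receptor of microglia, led them with 5.34 ± 0.92 in SVZ (limma adjusted p = 0.00340) and 4.23 ± 0.92 in hippocampus (adjusted p = 0.0162), followed by Laptm5 with 4.92 ± 0.85 and 3.72 ± 0.85. The summed level was 43.6 to 85.4 in SVZ, 39.2 to 70.6 in hippocampus and 19.7 to 39.0 in cerebellum, and 4, 5 and 10 of the 15 genes never exceeded 3 in these regions.

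Of 9 oligodendrocyte precursor markers, Olig1 (4.52 ± 0.28, limma adjusted p = 5.11e-07) and Olig2 were higher in SVZ and Olig1 (4.02 ± 0.28, adjusted p = 1.23e-06) in hippocampus than in cerebellum. Their summed level was 15.7 to 21.7 in SVZ, 15.0 to 16.8 in hippocampus and 8.56 to 10.4 in cerebellum, with 7, 8 and 9 of the 9 genes never above 3. Of 11 neuroblast markers 0 were called by limma, and 9, 9 and 8 never exceeded 3 in SVZ, hippocampus and cerebellum. At an unadjusted p under 0.05, 3 were on the SVZ side and 1 on the cerebellum side, and 0 passed in hippocampus. The smallest p in SVZ belonged to Prox1 (−1.58 ± 0.52, limma adjusted p = 0.1004) and Dcx (0.49 ± 0.17, adjusted p = 0.115). Dcx, the doublecortin gene of neuroblasts, lay between 0.87 and 1.84 in SVZ, 1.00 and 1.29 in hippocampus and 0.72 and 0.97 in cerebellum. Cd24a, a surface protein gene shared with other immature and ependymal cells and named after its values were seen, read 2.29, 4.31, 5.79, 5.90 and 2.24 in SVZ, 1.13, 4.87, 1.62, 1.53 and 3.22 in hippocampus and 1.60, 1.31, 1.80, 1.47 and 2.84 in cerebellum. It was above 3 on 3 SVZ arrays, the regions overlapped, and the SVZ difference was 2.30 ± 0.83 (limma adjusted p = 0.131).

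Of 13 endothelial cell and pericyte markers 1 was higher in SVZ than in cerebellum, Pdgfrb (2.88 ± 0.62, limma adjusted p = 0.0145), and 0 in hippocampus, with summed levels of 22.7 to 48.3 in SVZ, 27.0 to 44.9 in hippocampus and 19.8 to 28.8 in cerebellum. Of 13 astrocyte markers 3 were lower in SVZ and 4 in hippocampus, led by S100b (−3.41 ± 0.42 and −3.67 ± 0.42) and Slc1a3 (−1.83 ± 0.35 and −2.16 ± 0.35), and 0 were higher. Of 11 cerebellar neuron markers 4 were lower in SVZ, led by Zic1 (−5.08 ± 1.35) and Zic2 (−3.23 ± 0.69), and 2 in hippocampus, Pcp2 (−2.11 ± 0.49) and Calb1 (−1.61 ± 0.21). Of 9 oligodendrocyte markers only Cnp was called, lower in SVZ (−2.02 ± 0.26) and in hippocampus (−2.97 ± 0.26). Most of that list went the other way, with 7 of 9 positive in each comparison and medians of 0.31 and 0.33. Of all genes, 56.5% and 55.8% were positive, and of genes at or under 3 on every array 78.4% and 79.3% were. Of the 9 markers, 5 never exceeded 3 in SVZ and 7 never did in hippocampus. At an unadjusted p under 0.05, 3 of the 9 were above cerebellum in SVZ and 2 in hippocampus, with 1 below in each. By that measure 7.55% of all genes were above in either comparison. Of 8 ependymal markers 0 were called by limma and 1 passed an unadjusted p under 0.05 in each comparison, Rarres2 (−2.02 ± 0.76 in SVZ and −1.97 ± 0.76 in hippocampus), with the next smallest p at Dynlrb2 in SVZ (−1.54 ± 0.83) and Tmem212 in hippocampus (0.23 ± 0.17).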

How the data were processed

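Values of 15 Affymetrix mouse arrays were used, 5 per region as the sample titles and tissue labels group them. Per the labels' protocols, each array carried amplified RNA of pooled sorted cells, and no other source of replicates is stated, so p-values measure the spread between these pools. Per the submitters' processing notes the authors ran RMA. The deposited values were read as log2 signal because array maxima lay between 14.97 and 15.08. Not given in the sources used here are the log base, the RMA version and any further background step. If the base or background differed, the size of every difference would change. Of 45101 probe sets, 34945 carried 1 symbol in the platform annotation, 932 several, and 9211 were not listed.

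limma 3.58.1 in R 4.3.3 fitted region over all 15 arrays, with Benjamini-Hochberg adjustment over 18193 genes. Called means an adjusted p under 0.05. No filter was set on dim genes. The fit was tested on simulated data. For the genes used, 6 probe sets had the suffix s and 8 the suffix x, which can share or cross-hybridise with other transcripts, and 0 of the 64 further probe sets of 32 genes were called. Values on every array are given for genes called or not overlapping in a comparison and for 8 usual representatives; of other lists, the 2 largest called differences each way against cerebellum are named, or the 2 smallest p where a list has no call. The 41 genes, the other lists and the alternatives were chosen with earlier results of these data known. Alternatives were quantile normalization, median centring, a filter on dim genes, a gene's probe sets averaged or taken singly, a fit weighting the arrays, a trended robust prior, a replicate block, only the regions compared, the study's thresholds, the spike-in mean as a covariate, and left-out arrays. Promoters came from RefSeq (GRCm38.p6), with 300 bases searched. Figures used matplotlib 3.10.9 in Python 3.11.15 with pandas 2.3.3.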

Additional observations from a re-analysis of the deposited data

Results flagged for a closer look

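In 18 of the 123 sets of 5 arrays, formed by 41 genes in 3 regions, the highest or lowest array stood apart from the nearest of the other 4 by more than 0.71 of the set's range. Chance flags about 1 in 20 such sets, or 6.15 here. The 18 are 14.6% of the sets, and over all 18193 genes 10.5% of sets stood apart by the same measure, 12.2% in SVZ, 11.2% in hippocampus and 7.96% in cerebellum. The array was the highest in 15 sets and the lowest in 3, and 8 sets were of hippocampus, 7 of SVZ and 3 of cerebellum. Of the 15 high values, 6 exceeded a level of 3.

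On SVZ 5, Gins2 read 6.53, Cenpf 5.40 and Cdk2 2.59, with the next SVZ arrays at 1.93, 1.34 and 1.02. On SVZ 3, Mcm2 read 3.62 and Ccne2 1.21, and on SVZ 1, Nusap1 read 3.05. SVZ 1 was the low array for Pcna, at 3.20, with the next at 6.76. In hippocampus, Mcm6 read 6.15 and Cdk1 2.29 on array 2, and Ube2c read 2.08 on array 3. Hippocampus 4 read 3.93 for Mcm2, 2.78 for Cdk6 and 1.81 for E2f1, and hippocampus 5 read 2.32 for Ccnb2 and 2.15 for Ccne2. In cerebellum, array 4 was low for Ccnb2 (0.50) and Foxm1 (0.83), and array 3 was high for Ndc80 (1.44).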

How the results depend on the processing

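In SVZ against cerebellum the count of 3 genes was 5 with array weights, which added Cdc20 and Top2a, and 2 to 3 when each array was left out in turn. The mean of probe sets also called 3, but these were Mki67, Cdc20 and Cenpf, and without SVZ 2 or SVZ 3 Cdc20 stood in place of Cenpe; Mki67 was called in every alternative run and Ccnd2 in all but the mean of its probe sets. In hippocampus against cerebellum the count of 2 was 1 with the spike-in mean as covariate and likewise 1 when cerebellum 4 and 5 were left out, Ccnd2 being kept. The count rose to 3 after quantile normalization and to 3 with array weights. It was 2 with Cdk6 in place of Ccnd2 for the mean of probe sets, and ranged from 1 to 3 when each array was left out. The count was 0 in SVZ against hippocampus throughout. Cenpe lost its SVZ call in 16 of 27 alternatives, with adjusted p of 0.0047 to 0.277 over them. Over all genes the counts for SVZ against cerebellum and hippocampus against cerebellum, 1002 and 869, were 585 and 469 after quantile normalization, 198 and 226 with the spike-in covariate, 368 and 358 in the absence of cerebellum arrays 4 and 5, 1717 and 1477 over every probe set, 584 and 522 at the study's thresholds, and 612 and 545 at the lowest with an array left out; array weights gave 1561 in SVZ. The SVZ against hippocampus count, 4, ran from 0 to 11 and was 65 at the study's thresholds.

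Whether replicate numbers pair the arrays is not settled. Same-numbered deviations correlated weakly, at 0.03 to 0.11, −0.12 to 0.14 and −0.02 to 0.10 in the 3 comparisons. All 5 SVZ arrays nevertheless correlated best with the cerebellum array of their own number. The own number was best for 3 of 5 hippocampus arrays against cerebellum and for 2 of 5 SVZ arrays against hippocampus. The main fit took the arrays as unpaired. With the replicate block 2, 2 and 0 of the genes were called, Cenpe being lost (adjusted p = 0.0627).

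Sign changes were confined, among the 12 genes followed through the alternatives, to differences that were never called. Cdk6 in SVZ against cerebellum was −0.00873 after quantile normalization and −0.0693 with the spike-in covariate. In SVZ against hippocampus Ccnd2 was 0.02 after median centring, 0.14 with array weights, 0.0555 with the covariate and 0.41 without SVZ 1 and hippocampus 3; Pcna was 0.11 with array weights and 0.51 without those arrays, and Cdk1 was 0.0700 with array weights. With each array left out, Ccnd1 in hippocampus against cerebellum ranged from −0.0105 to 0.632, and in SVZ against hippocampus Ccnd2 ranged from −0.28 to 0.31, Pcna from −0.43 to 0.56, Ccnb2 from −0.27 to 0.10, Cenpa from −0.0825 to 0.335, Cenpf from −0.34 to 0.77 and Cdk1 from −0.2105 to 0.085. The cause of these changes was not tested. Levels near 1 carry little signal over background, which limits what can be read from most of the mitotic genes.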
